A study of Mus musculus with 2 samples.

Results

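The CC chemokine ligands described here are 10 genes, Ccl2, Ccl3, Ccl4, Ccl5, Ccl6, Ccl7, Ccl9, Ccl12, Ccl22 and Ccl24, chosen by name among the rows of a single-cell mRNA count matrix of mouse liver myeloid cells. The matrix lists 25909 genes, of which 18 are CC chemokine ligand genes, and all 10 members had counts in each of the 4 mice. The study asked how the transcription factor Egr2 acts in liver macrophages during steatohepatitis. There was 1 mouse per group. Both genotypes, Egr2 fl/fl (floxed mice below) and Lyz2 Cre/+.Egr2 fl/fl (Cre mice below), were studied on normal diet (ND) and after 7 weeks on CDA-HFD, a high-fat diet without choline whose protein is replaced by amino acids. All 4 mice carry loxP sites around both copies of Egr2. Cre made from the Lyz2 locus deletes Egr2 in myeloid cells, so cells that do not use Lyz2 can keep it, and these mice lack 1 working copy of Lyz2. The study's methods give male mice of 6 to 12 weeks of age at the start of the diet. The sort kept CD45.2+ CD11b+ cells without CD90.2, B220, NK1.1 or SiglecF, a gate that would remove eosinophils and most lymphocytes, although a few cells with genes of either were found (below). Each mouse had its own hashtag, a DNA tag read with the mRNA, and the cells were pooled for 1 capture, so RNA released during capture was shared by all 4 mice.

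Leaving out cells with over 25% mitochondrial counts, 1723 cells of the floxed and 1590 of the Cre mouse on ND remained, and 5885 and 6186 on CDA-HFD. Median counts per cell were 16459 and 15864.5 on ND and 13168 and 13476.5 on CDA-HFD in the same order, and the totals per mouse ran from 27840300 to 90124521. Egr2 was measured at 13.3 counts per 1000000 (CPM) in the floxed and 5.85 CPM in the Cre mouse on ND, and at 49.4 and 18.2 CPM on CDA-HFD. With 1 mouse per group there is no spread between mice, no test was made, and every interval below is a 95% interval for counting error only. A ratio was called past 2-fold when it was at least 2 or at most 0.5, its interval excluded 1 and both sides held at least 100 counts together. Whether the counts are reads or molecules is not stated in the sources used here, and if they are reads the intervals are too narrow.

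CC chemokines are small secreted proteins that draw leukocytes along a gradient through G protein-coupled receptors. Ccl2, Ccl7 and Ccl12 are ligands of Ccr2 and call in inflammatory monocytes, Ccl3, Ccl4 and Ccl5 are inflammatory ligands that attract monocytes and T cells, and Ccl6 and Ccl9 are Ccr1 ligands found in rodents. Ccl22 attracts regulatory and type 2 helper T cells through Ccr4, and Ccl24, also called eotaxin-2, attracts eosinophils through Ccr3. In steatohepatitis, monocytes enter the liver and become macrophages as resident Kupffer cells are lost, so the cells that make these ligands change together with the ligands.

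Of the 10 genes, 8 lie on chromosome 11 (GRCm38, GENCODE vM21), in 2 stretches. The Ccr2 ligands lie together, Ccl2 at chr11:82035571-82037453, Ccl7 at chr11:82045712-82047525 and Ccl12 at chr11:82101845-82103400, all on the plus strand. The other stretch holds Ccl5 (chr11:83525778-83530518), Ccl9 (chr11:83572919-83578636), Ccl6 (chr11:83587882-83593087) and Ccl3 (chr11:83647844-83649355) on the minus strand and Ccl4 (chr11:83662584-83664683) on the plus strand. Between Ccl3 and Ccl4 there are 13228 bases, and between Ccl9 and Ccl6 there are 9245. Ccl24 lies at chr5:135569937-135573049 on the minus strand and Ccl22 at chr8:94745590-94751699 on the plus strand. Ccl2 overlaps the annotated gene Gm17268 and Ccl6 overlaps E230016K23Rik, and whether the counting used strand is not stated, so reads of these pairs may not be told apart.

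RefSeq promoter sequence was at hand for 5 of the 10 members, Ccl3, Ccl6, Ccl9, Ccl12 and Ccl22. The 250 bases before the RefSeq start (GRCm38.p6) are printed for Ccl9, Ccl6 and Ccl3, because among these neighbours on 1 strand Ccl9 had another leading source (hLAM-like cells) than Ccl6 and Ccl3 (neutrophil-like cells), as described below. Each is written 5′ to 3′ on the gene's own strand, and capitals mark matches to the motifs named after them.
Ccl9 (chr11:83578637-83578886, minus strand): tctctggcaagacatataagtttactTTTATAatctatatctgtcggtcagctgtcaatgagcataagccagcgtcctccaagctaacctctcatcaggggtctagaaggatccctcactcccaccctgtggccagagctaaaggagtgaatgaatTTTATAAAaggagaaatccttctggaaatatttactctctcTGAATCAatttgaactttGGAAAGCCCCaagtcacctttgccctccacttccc
Ccl6 (chr11:83593088-83593337, minus strand): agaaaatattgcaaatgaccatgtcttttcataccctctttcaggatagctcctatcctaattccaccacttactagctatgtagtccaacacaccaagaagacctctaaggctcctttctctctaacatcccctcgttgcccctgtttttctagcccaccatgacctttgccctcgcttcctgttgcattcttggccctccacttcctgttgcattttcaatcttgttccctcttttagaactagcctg
Ccl3 (chr11:83649379-83649628, minus strand): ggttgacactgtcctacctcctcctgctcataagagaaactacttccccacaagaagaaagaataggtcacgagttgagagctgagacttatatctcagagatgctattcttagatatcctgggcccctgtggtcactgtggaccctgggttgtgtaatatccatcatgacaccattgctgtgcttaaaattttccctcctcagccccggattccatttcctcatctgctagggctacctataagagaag
On both strands, 4 motifs were searched in these windows: the AP-1 motif TGANTCA, the TATA motif TATAAA, the Egr motif GCGTGGGCG, and the NF-kB motif by its usual degenerate form. Ccl9 held 1 AP-1 match starting at -53, 3 TATA matches starting at -224, -94 and -92, which overlap at the last pair, and 1 NF-kB match starting at -35, counted from the RefSeq start. Ccl6 and Ccl3 held no match to any of the 4. Among 32851 promoters of the same length, 6.75% held the AP-1 letters, 12.4% the TATA letters, 0.536% the Egr letters and 3.90% an NF-kB match. None of the 5 promoters of members held the Egr letters. A match is a run of letters and not a bound site.

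To find the source cells, the 15384 cells were clustered without any CC chemokine ligand gene, and each cluster was named by lists of marker genes holding no chemokine or chemokine receptor. Of 23 clusters, 16 took a name ending in -like, and 7 with 4337 cells did not and are called by their leading genes. Kupffer cell-like cells were 40.2% and 45.35% of the cells of the ND-fed mice, and 0 and 11 cells of the CDA-HFD-fed mice. The 10 Kupffer cell markers, among them Clec4f and Timd4, summed to 14780 and 18390 CPM over all cells on ND and to 234 and 387 CPM on CDA-HFD. hLAM-like cells, which carry markers of hepatic lipid-associated macrophages such as Spp1 and Gpnmb, went the other way, from 0.232% and 0.189% of the cells on ND to 13.95% and 13.03% on CDA-HFD. Neutrophil-like cells came mainly from a Retnlg-led cluster on ND, and from this and a Csf1- and Acod1-led cluster on CDA-HFD. Ly6Chi monocyte-like cells came from a Ly6a2- and Vcan-led cluster on ND, and from this and a Gpr84- and Clec4e-led cluster on CDA-HFD. In a level summed over all cells, fewer cells of a type and less RNA per cell cannot be told apart.

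**Figure D1:**
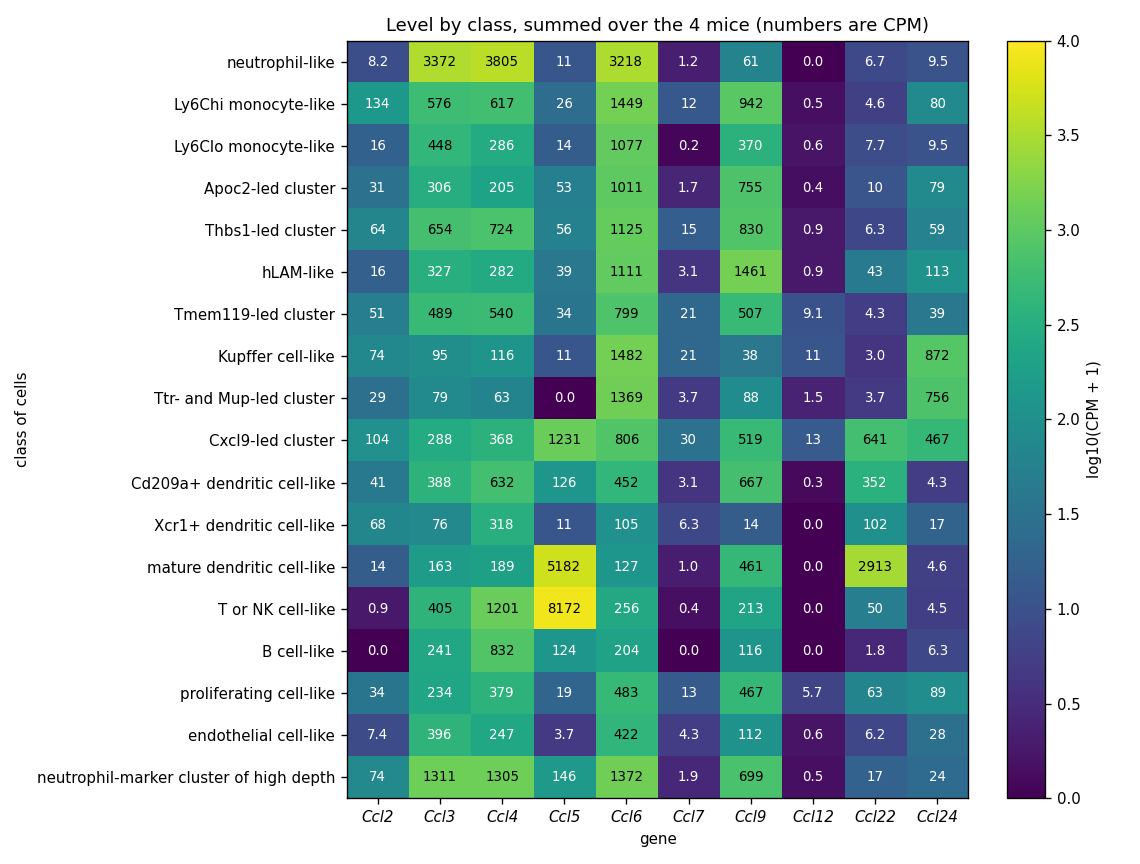
Level of each ligand (columns) in each class of cells (rows), summed over the 4 mice, with the number in each cell in CPM and the colour as log10(CPM + 1). Read down a column, Ccl3 and Ccl4 were highest in neutrophil-like cells when the mice were summed, Ccl5 and Ccl22 in T or NK cell-like and mature dendritic cell-like cells in turn, Ccl9 in hLAM-like cells and Ccl24 in Kupffer cell-like cells.

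Ccl3 and Ccl4 had the same leading source. Over the 4 mice, Ccl3 stood at 3372 CPM and Ccl4 at 3805 CPM in neutrophil-like cells, most of which came from the CDA-HFD-fed mice. On ND the Tmem119-led cluster, a macrophage cluster also led by Olfml3 and Pf4, stood above them in both mice, at 1084 and 1241 CPM of Ccl3 against 636 and 508.5 CPM, and at 1439 and 1411 CPM of Ccl4 against 480 and 469 CPM, so here too the order of the sources depended on the diet. By share of the counts on ND, Kupffer cell-like cells held 43.3% and 36.4% of Ccl3 and 44.5% and 33.9% of Ccl4. Neutrophil-like cells held 6.78% and 9.55% of Ccl3 and 3.59% and 8.04% of Ccl4 there. The 2 neutrophil-like clusters differed in these ligands. In the Csf1- and Acod1-led cluster Ccl3 reached 5962 CPM and Ccl4 6560 CPM, whereas in the Retnlg-led cluster they reached 816 and 1111 CPM. After each cell was thinned to 3000 counts, 58.3% of neutrophil-like cells had a count of Ccl3 (60.4% unthinned), against 13.3% of endothelial cell-like cells (24.4% unthinned), which are not known for this ligand, and 19.2% of B cell-like cells (28.8% unthinned), which can make it when activated. The median depths of the 3 classes were 4015, 11023 and 12171 counts. The next class was a cluster of 114 cells with 9 of 10 neutrophil markers, at 1311 CPM of Ccl3, and 94.7% of its cells were among those with the highest doublet scores. An Il4- and Alox15-led cluster took no name. Among its leading genes were Prg2, Il5ra and Ccr3, known from eosinophils, but also Il6, Serpinb2 and F5. This cluster held more Ccl3 and Ccl4 per count, at 5042 and 7253 CPM. With 34 cells, 0 and 3 on ND and 11 and 20 on CDA-HFD, it was too small to be ranked.

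Ccl3 and Ccl4 were often found in the same cell. Of the 7258 cells with Ccl3, 57.95% also had Ccl4, against 29.98% of the cells without Ccl3. In neutrophil-like cells the shares were 67.3% and 28.8%, and in Ly6Chi monocyte-like cells 53.0% and 26.3%. Deeper cells show more genes, so depth enters each of these pairs of shares. Across the 40 combinations of mouse and class with enough cells, the log levels of Ccl3 and Ccl4 had a Pearson r of 0.939, the highest of any gene for either of them. For both, the next most alike genes were Ccrl2, an atypical chemokine receptor (r = 0.853 and 0.81), and Osm, the cytokine oncostatin M. These points share mice and libraries, so the r is a description.

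Ccl5, a ligand made by activated lymphocytes, was led by the few T or NK cell-like cells that passed the sort, at 8172 CPM over 196 cells. Within them, the Gzma-led cluster of 92 cells stood at 18845 CPM with a count in 100% of cells, and the Trac-led cluster of 104 cells at 3162 CPM. Mature dendritic cell-like cells followed at 5182 CPM and the Cxcl9-led cluster, which raised 9 of 10 interferon-response markers, at 1231 CPM. Neutrophil-like cells of the Retnlg-led cluster stood at 1.58 CPM. The lowest Ccl5 value above 0 in the matrix is 6, so cells with fewer counts of it are listed at 0, and low shares of cells with Ccl5 may be understated.

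For the Ccr2 ligands, the sources depended on the diet as well. On ND, Kupffer cell-like cells held 63.65% of the Ccl2 counts of the floxed mouse and 85.1% of those of the Cre mouse. On CDA-HFD, Ly6Chi monocyte-like cells held 40.7% and 43.6%, and had held 2.81% and 1.09% on ND. Their level over the 4 mice was 134 CPM, with a count in 10.97% of thinned cells (18.1% unthinned, median depth 13146). By mouse they did not lead. On CDA-HFD the Cxcl9-led cluster stood at 123 and 248 CPM of Ccl2, against 116 and 172 CPM in Ly6Chi monocyte-like cells. On ND the Tmem119-led cluster stood at 399 and 121 CPM, against 49.9 and 17.7 CPM. None of the 73 B cell-like cells had a count of Ccl2, which allows a share of cells with a count of up to 4.11% at a median depth of 12171 and sets no limit on expression below detection. Ccl7 and Ccl12 were found in few cells, 284 and 176 of the 15384 cells. Of the cells with Ccl7, 57.4% also had Ccl2, against 9.09% of the cells without Ccl7. Kupffer cell-like cells held 52.5% and 93.9% of the Ccl7 counts on ND, and 70.3% and 87.7% of the Ccl12 counts. On CDA-HFD, the Tmem119-led cluster held 67.3% and 49.7% of the Ccl12 counts. One cell of the ND-fed Cre mouse held 38.5% of that mouse's Ccl7 counts, so levels of Ccl7 rest on few cells. By the same r over 40 points, the gene most like Ccl2 was Oas1a (0.848), an interferon-induced gene, and those most like Ccl7 were Ccl12 (0.669) and Ccl2 (0.661).

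The rodent Ccr1 ligands Ccl6 and Ccl9 lie side by side in the genome but had different sources. Ccl6 was detected nearly everywhere, in 73.1% of all thinned cells (87.2% unthinned). Per count it was highest in neutrophil-like cells at 3218 CPM, whereas per cell these shallow cells held 14.1 counts of it and Kupffer cell-like cells 38.0. In neutrophil-like cells the order of the clusters was the reverse of that of Ccl3: 5414 CPM in the Retnlg-led and 1584 CPM in the Csf1- and Acod1-led cluster. Ccl9 was at 60.75 CPM in neutrophil-like cells, whereas hLAM-like cells led it at 1461 CPM and Ly6Chi monocyte-like cells followed at 942 CPM. Kupffer cell-like cells stood at 38.2 CPM of Ccl9 and 1482 CPM of Ccl6. A count of Ccl9 was found in 81.8% of thinned hLAM-like cells (94.98% unthinned, median depth 20632) and in 10.96% of thinned B cell-like cells (21.9% unthinned), which are not known to make it. For Ccl6, the share in thinned B cell-like cells was 19.2%, so part of its wide detection is at the level of a class that should lack it. The gene most like Ccl6 was Tyrobp, an adaptor of myeloid receptors, with r = 0.922, and the gene most like Ccl9 was Fam129b with r = 0.898, over the same 40 points.

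Ccl22 was led by mature dendritic cell-like cells, which carry Fscn1 and Relb, at 2913 CPM. In these, 67.4% of thinned cells had a count (76.9% unthinned, median depth 14036), against 0.741% of endothelial cell-like cells (3.70% unthinned). Cd209a+ dendritic cell-like cells had 352 CPM, with a count in 17.8% of thinned cells. Within mature dendritic cell-like cells, Ccl22 was found in fewer of the cells that had Ccl5. Of the 222 such cells with Ccl5, 69.8% had Ccl22, and of those without Ccl5, 92.2% had it. Its most alike genes included Ccl17, the other ligand of Ccr4, with r = 0.828.

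Ccl24 was led by Kupffer cell-like cells at 872 CPM, with a count in 78.0% of thinned cells (96.6% unthinned, median depth 25888), against 2.74% of thinned B cell-like cells. A Ttr- and Mup-led cluster, with hepatocyte genes and 10 of 10 markers of monocyte-derived Kupffer cells, followed at 756 CPM. In the CDA-HFD-fed mice, with 0 and 11 Kupffer cell-like cells, hLAM-like cells held 44.3% and 38.0% of the Ccl24 counts, at 113.5 and 105 CPM. The Gpr84- and Clec4e-led Ly6Chi monocyte-like cluster stood at 249 and 140 CPM in those mice, and the other, Ly6a2-led cluster at 10.96 and 10.99 CPM.

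**Figure D2:**
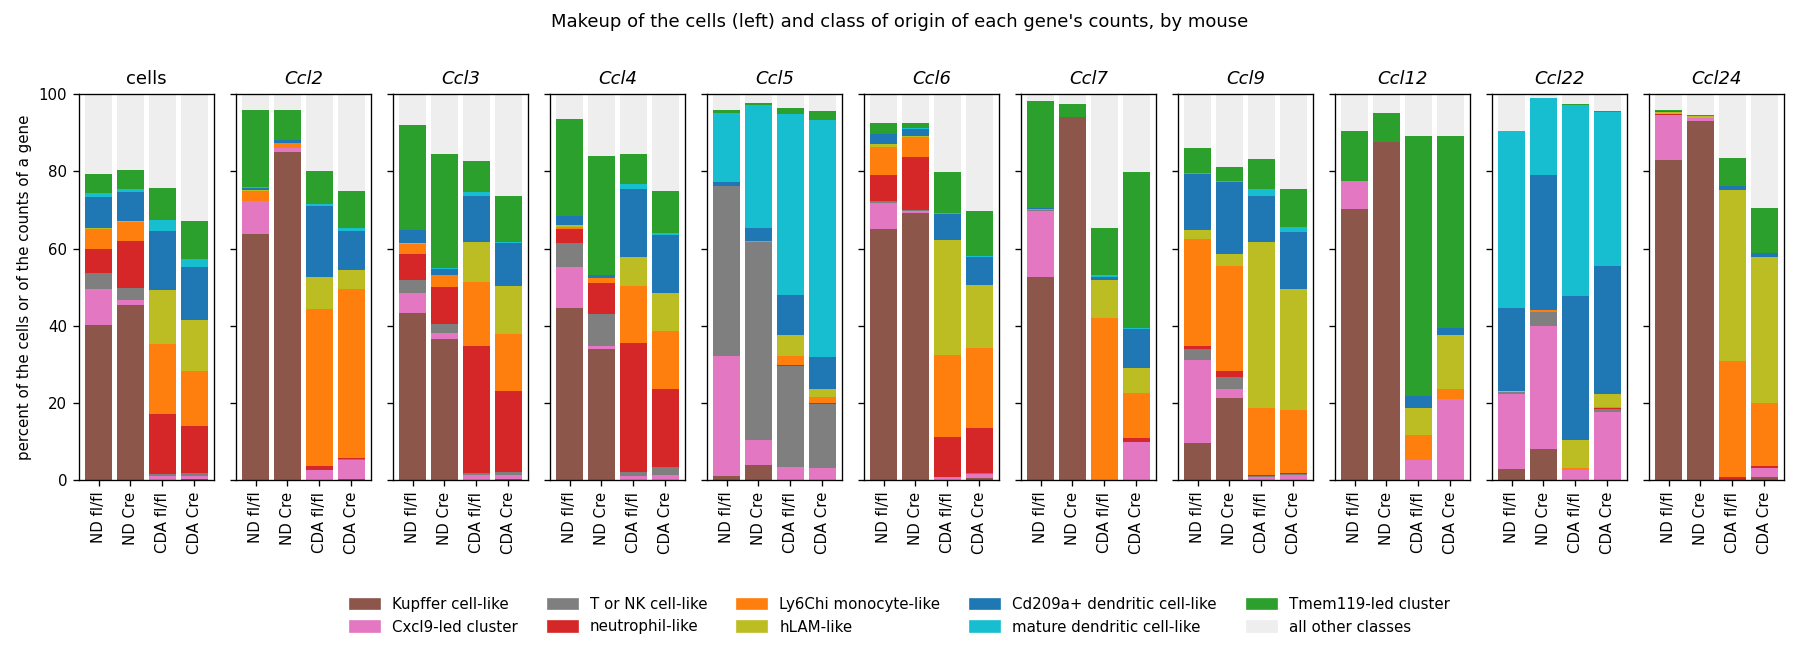
Share of each mouse's cells (left panel) and of each ligand's counts (other panels) that came from each class, as percent of the total, with 1 bar per mouse (fl/fl marks floxed mice, Cre marks Cre mice and CDA is CDA-HFD). Kupffer cell-like cells, the brown segments, held 83.1% and 93.1% of the Ccl24 counts on ND and 0% and 0.811% on CDA-HFD.

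Over all cells of the floxed mice, 4 ligands were past 2-fold higher on CDA-HFD than on ND, where 5.21% of 14078 genes were, and 3 were past 2-fold lower, where 10.5% of genes were. The median ratio of the 10 ligands was 0.845, and that of all genes tested was 0.909. Between the Cre mice, 4 ligands were higher, against 5.3% of genes, and 3 were lower, against 11% of 14197 genes. Their median ratio was 1.02, and that of all genes was 0.904. The comparisons of the 2 genotypes use different mice.

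**Figure D3:**
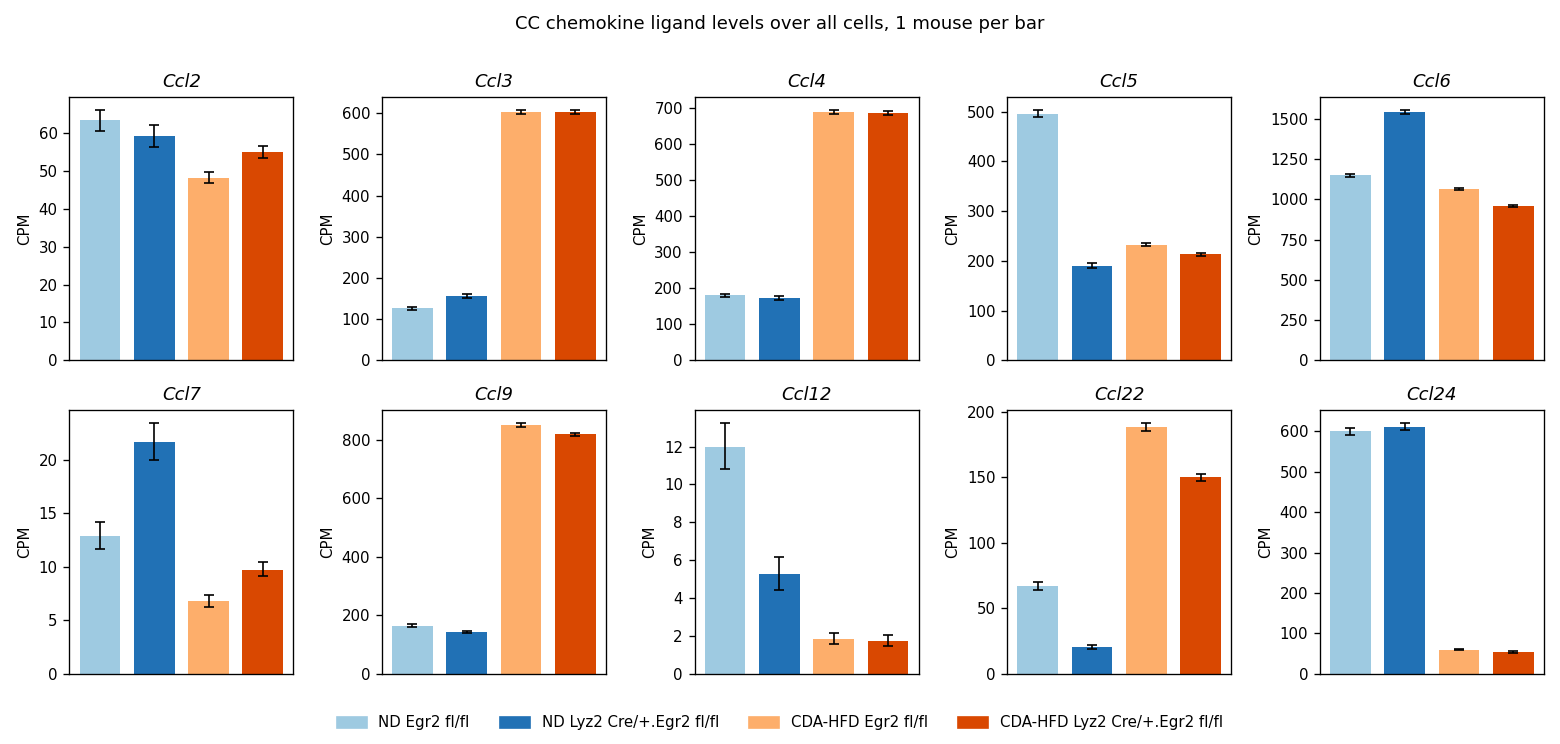
CPM of each ligand over all cells of each mouse (bars, 1 mouse each) with exact Poisson 95% intervals of the counts. The CDA-HFD-fed mice were higher than the ND-fed mice for Ccl3, Ccl4, Ccl9 and Ccl22, and lower for Ccl12 and Ccl24, in both genotypes.

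Ccl3 stood at 126 and 157 CPM on ND, and on CDA-HFD at 603.5 and 603 CPM, with the floxed mouse first here and below. Both mice on CDA-HFD were above both on ND, with ratios of 4.79 (4.63 to 4.94) in floxed and 3.85 (3.73 to 3.97) in Cre mice. Ccl4 followed the same course, at 180 and 172 CPM on ND and 689.9 and 686 CPM on CDA-HFD, with ratios of 3.83 (3.73 to 3.94) and 3.985 (3.87 to 4.105). Ccl9 went from 164.5 and 142 CPM to 852 and 819 CPM, with ratios of 5.18 (5.035 to 5.325) and 5.76 (5.58 to 5.95). Of the 10 ligands in the floxed mice, its ratio was the highest. Ccl22 stood at 66.9 and 20.2 CPM on ND and 188.6 and 150 CPM on CDA-HFD. Its ratios of 2.82 (2.695 to 2.95) and 7.43 (6.83 to 8.10) differ mainly through the ND-fed mice, in which 1 cell held 34.3% and 26.7% of all Ccl22 counts.

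Ccl24 stood at 600.4 and 612 CPM on ND and at 59.4 and 53.3 CPM on CDA-HFD, about the same in both genotypes. The ratios were 0.0989 (0.0959 to 0.102) and 0.0872 (0.0844 to 0.0900), and Ccl24 was lower by more than any other of the 10 ligands in both. Ccl12 went from 12.0 and 5.24 CPM to 1.83 and 1.74 CPM, with ratios of 0.153 (0.126 to 0.184) and 0.332 (0.2635 to 0.419). Ccl7 stood at 12.9 and 21.7 CPM on ND and at 6.75 and 9.73 CPM on CDA-HFD, and was past 2-fold lower in Cre mice alone, at 0.449 (0.405 to 0.499) against 0.523 (0.460 to 0.595). Ccl5 was past 2-fold lower in floxed mice, from 496 to 233 CPM, at 0.469 (0.459 to 0.479), and went from 191 to 213 CPM in Cre mice, at 1.12 (1.09 to 1.155). Scaling by edgeR's TMM factors moved all diet ratios up by 0.148 and 0.164 on the log2 scale and ended both calls, at 0.519 for Ccl5 and 0.503 for Ccl7.

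Ccl2 and Ccl6 stayed within 2-fold. Ccl2 stood at 63.4 and 59.2 CPM on ND and 48.3 and 54.9 CPM on CDA-HFD, with ratios of 0.762 and 0.928, although its main source moved from Kupffer cell-like to Ly6Chi monocyte-like cells. Ccl6 stood at 1149 and 1543 CPM on ND and at 1066 and 958.5 CPM on CDA-HFD, with ratios of 0.928 and 0.621. Under the TMM factors Ccl6 in floxed mice was at 1.03 and Ccl2 in Cre mice at 1.04, so these directions depend on the scaling.

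Because the share of Kupffer cell-like cells moved with the diet, the levels were also compared at 1 makeup. The 5 classes with at least 50 cells in all 4 mice, namely Ly6Chi and Ly6Clo monocyte-like, Cd209a+ dendritic cell-like and neutrophil-like cells and the Tmem119-led cluster, were weighted as in the ND-fed floxed mouse. These classes held 41.4% to 71.5% of the Ccl3 counts of a mouse and 32.3% to 74.7% of the Ccl4 counts. At this makeup Ccl3 and Ccl4 were at 2.59 and 2.74 in floxed and 2.385 and 2.78 in Cre mice. The makeup is fixed by class and not by cluster, and 102 of 107 neutrophil-like cells of the ND-fed floxed mouse were of the Retnlg-led cluster against 331 of 912 on CDA-HFD. With neutrophil-like cells of the Retnlg-led cluster and Ly6Chi monocyte-like cells of the Ly6a2-led cluster alone, Ccl3 was within 2-fold, at 1.64 (1.555 to 1.72) and 1.78 (1.69 to 1.86), and Ccl4 was at 1.82 (1.74 to 1.91) and 2.085 (1.98 to 2.19), so the calls at 1 makeup rest on the clusters found mainly on CDA-HFD except for Ccl4 in Cre mice. Ccl9 was within 2-fold at the class makeup, at 1.19 and 1.56. These classes held 38.7% to 55.1% of its counts of a mouse and leave out hLAM-like cells, its leading source. The weighted levels leave out Kupffer cell-like, hLAM-like, T or NK cell-like and mature dendritic cell-like cells and the Cxcl9-led cluster, because each had under 50 cells in at least 1 mouse. On ND they therefore held 0.702% and 0.393% of the Ccl24 counts, 1.79% and 5.09% of the Ccl5 counts, 12.8% and 7.53% of the Ccl12 counts, 21.6% and 35.8% of the Ccl22 counts, 23.8% and 9.90% of the Ccl2 counts and 28.3% and 3.65% of the Ccl7 counts. For these 6 ligands the weighted ratios describe a part of the ND counts without leading sources of each, and do not bear on the ratios over all cells. The classes held 21.7% and 23.6% of the ND counts of Ccl6. Kupffer cell-like cells, left out, held 23917 of 36804 and 29774 of 42957. For Ccl6 and Ccl9 too, the weighted ratios describe a part of the counts and do not bear on those over all cells.

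**Figure D4:**
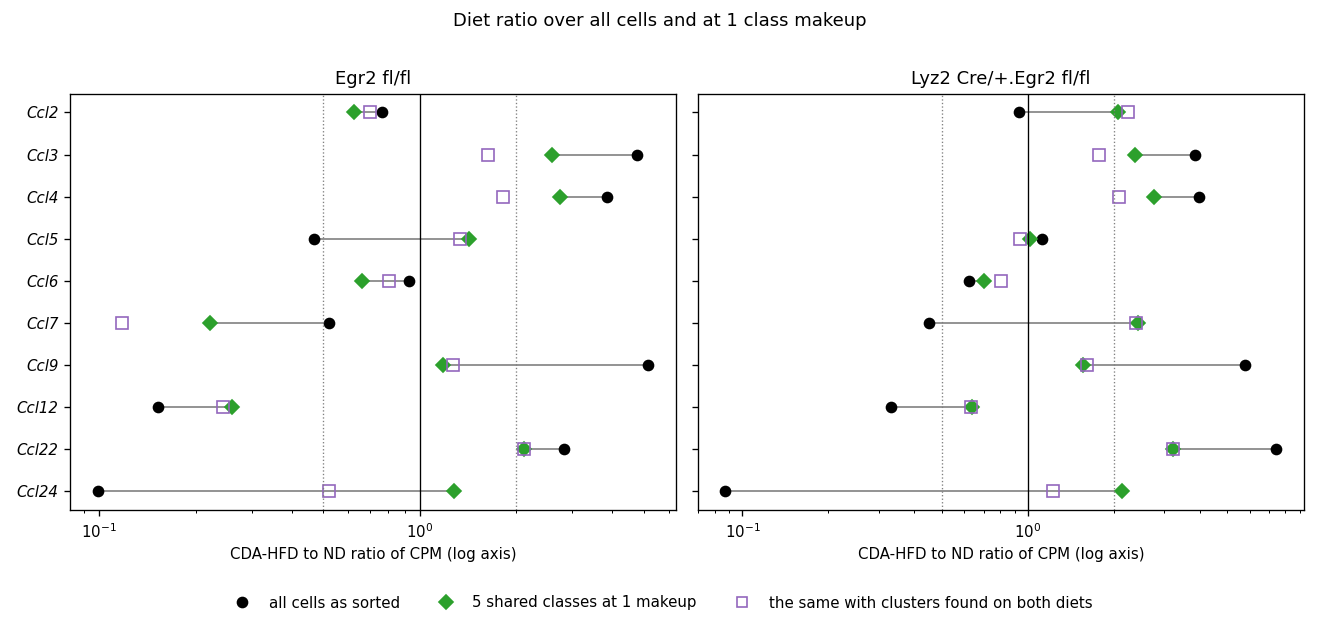
Ratio of CPM between CDA-HFD and ND (log axis) for each ligand, over all cells as sorted (black circles) and over the 5 classes with cells in all 4 mice at 1 makeup (green diamonds), and the same with clusters found on both diets (open purple squares), for each genotype. Dotted lines mark 2-fold and 0.5-fold. Ccl3 moved from 4.79 to 2.59 and then 1.64 in floxed mice and from 3.85 to 2.385 and then 1.78 in Cre mice, and for Ccl24 the diamonds rest on the 0.702% and 0.393% of its ND counts that these classes held.

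Within classes, 71 pairs of a ligand and a class could be compared between diets in 1 genotype or the other, and 49 of them (69.0%) were past 2-fold, 35 higher and 14 lower on CDA-HFD. One of the 35, Ccl5 in Ly6Chi monocyte-like cells of floxed mice, was counted against cells listed at 0, for which the file sets no bound, as given below. Over all genes, 11.3% of 70703 such pairs were. In floxed mice 30 of 40 pairs were past 2-fold, and in Cre mice 19 of 31. Without the 1 cell with the most counts on each side, 28 and 18 of these stayed past 2-fold.

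Ccl3 and Ccl4 were higher on CDA-HFD in both genotypes in each of 4 classes. In Ly6Chi monocyte-like cells Ccl4 went from 34.2 to 602 CPM in floxed and from 58.0 to 732 CPM in Cre mice, ratios of 17.6 (12.9 to 24.8) and 12.6 (9.78 to 16.6). Ccl3 in the same cells had ratios of 6.75 and 4.89. In Cd209a+ dendritic cell-like cells the ratios of Ccl4 were 12.4 and 41.7, and those of Ccl3 7.15 and 12.35. Ly6Clo monocyte-like cells, the patrolling monocytes, had ratios of 6.095 and 12.5 for Ccl4 and 6.52 and 11.2 for Ccl3. In neutrophil-like cells Ccl3 went from 636 to 4286 CPM and from 508.5 to 3349 CPM, ratios of 6.74 and 6.59. Those cells came from different clusters on the 2 diets, and within the Retnlg-led cluster the ratios were 1.515 and 2.38 for Ccl3, the former within 2-fold, and 4.05 and 6.36 for Ccl4. In Ly6Chi monocyte-like cells of the Ly6a2-led cluster alone, which was found on both diets, Ccl3 was at 5.23 and 5.204 and Ccl4 at 9.295 and 11.4, the former of these well under the 17.6 of the whole class.

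The 10 neutrophil markers summed to 422 and 358 CPM on ND and to 434 and 449 CPM on CDA-HFD in Ly6Chi monocyte-like cells, to 347 and 244 CPM against 375 and 355 CPM in Ly6Clo monocyte-like cells, and to 185 and 296 CPM against 287 and 225 CPM in Cd209a+ dendritic cell-like cells. Because the cells of all mice were pooled for capture, RNA released there was shared, so these sums cannot give its part. S100a9 was the marker at 0 in the Ly6Chi monocyte-like cells of both ND-fed mice. In their Ly6Clo monocyte-like cells S100a9 and Retnlg were both at 0, so the sums there rest on other markers. Endothelial cell-like cells, which are not known for Ccl3, stood at 0 and 29.9 CPM of it on ND and at 1609 and 514 CPM on CDA-HFD, from 17 to 57 cells per mouse. B cell-like cells, which can make Ccl3 when activated, stood at 38.6 and 84.4 CPM on ND and at 327 and 527 CPM on CDA-HFD. The part of RNA from other cells in the Ccl3 and Ccl4 ratios was not tested.

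The Tmem119-led cluster went against the other classes. Ccl3 in it went from 1084 to 369 CPM in floxed and from 1241 to 487 CPM in Cre mice, ratios of 0.341 (0.319 to 0.365) and 0.392 (0.369 to 0.417). Ccl4 had ratios of 0.287 and 0.362. Ccl2 in this cluster went from 399 to 30.8 CPM and from 121 to 35.8 CPM, ratios of 0.0773 and 0.297. Cells of the cluster held more counts on CDA-HFD, and by counts per cell the ratios of Ccl3 were 0.648 and 0.613 and those of Ccl4 0.546 and 0.567, within 2-fold. The 10 Kupffer cell markers summed to 677 and 1017 CPM in this cluster on ND and to 1094 and 1419 CPM on CDA-HFD.

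Ccl2, the main monocyte-attracting ligand, was higher on CDA-HFD in Ly6Chi monocyte-like cells, from 49.9 to 116 CPM and from 17.7 to 172 CPM. The ratios were 2.33 (1.785 to 3.08) and 9.74 (6.15 to 16.5). Within the Ly6a2-led cluster alone they were 4.53 and 11.1. In Cd209a+ dendritic cell-like cells they were 8.48 and 4.48. Ccl24 in Ly6Chi monocyte-like cells went from 13.1 to 106 CPM and from 2.95 to 62.3 CPM, but the ND-fed mice gave 15 and 3 counts, and 11 of the 15 came from 1 cell. The ratios were 8.06 (4.87 to 14.4) and 21.1 (7.203 to 103). Within the Ly6a2-led cluster they were 2.98 (1.13 to 11.2) and 3.50 (1.155 to 17.3), and both sides together held under 100 counts, so neither was called. Ccl7 in these cells had 1 and 0 counts on ND and 241 and 101 on CDA-HFD, ratios of 19.1 (3.39 to 757) in floxed and at least 2.74-fold in Cre mice, the latter from a floor of 3 counts per mouse and lost without the cell with the most counts. Within the Ly6a2-led cluster Ccl7 had 0 counts on ND and 54 and 52 on CDA-HFD, too few to be called, and 187 of the 241 counts and the 1 count on ND lay in the Gpr84- and Clec4e-led cluster, which held 3 cells of the ND-fed floxed mouse. Ccl5 in Ly6Chi monocyte-like cells was listed at 0 in all cells of the ND-fed floxed mouse and had 434 counts in the CDA-HFD-fed one. Since cells with fewer than 6 counts of Ccl5 are listed at 0, no fold is given for it. In Cre mice it had a ratio of 1.59 (0.960 to 2.81), and within the Ly6a2-led cluster it lay on the other side of 1, at 0.197 (0.101 to 0.396), from 16 counts in 1 cell on ND and 25 counts on CDA-HFD.

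For Ccl9, the ratios within the classes compared were all smaller than the 5.18 and 5.76 over all cells. In Ly6Chi monocyte-like cells its ratios were 0.688 and 0.914, and in Ly6Clo monocyte-like cells 2.485 and 1.52. In the Tmem119-led cluster they were 1.48 and 3.86, in Cd209a+ dendritic cell-like cells 1.82 and 2.12, in neutrophil-like cells 0.781 and 0.686, and in the Cxcl9-led cluster of floxed mice 1.84. hLAM-like cells, with 4 and 3 cells on ND, could not be compared between diets. They held 43.0% and 31.3% of the Ccl9 counts on CDA-HFD, at 1578 and 1331 CPM. Ccl6 was past 2-fold in neutrophil-like cells alone, lower at 0.419 (0.401 to 0.438) and 0.405 (0.392 to 0.418). Within the Retnlg-led cluster its ratios were 0.699 and 0.672, within 2-fold.

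Ccl22 in Cd209a+ dendritic cell-like cells went from 204.5 to 425 CPM and from 104 to 336 CPM, ratios of 2.08 (1.89 to 2.29) and 3.24 (2.81 to 3.76). In the ND-fed mice 1 cell held 95.6% and 47.2% of these counts. Without the highest cell on each side the ratios were 44.7 and 5.71, so the size of this difference rests on single cells while its direction did not change. Mature dendritic cell-like cells had 19 and 13 cells on ND and were not compared. In the CDA-HFD-fed mice they stood at 3160 and 2796 CPM of Ccl22.

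The Cxcl9-led cluster could be compared between diets in floxed mice alone, with 160 cells on ND and 56 on CDA-HFD. Ccl24 had 2231 counts in it on ND and 2 on CDA-HFD, 754 and 2.28 CPM, a ratio of 0.00302 (0.000366 to 0.0109). Of these ND counts, 19.6% came from 1 cell, and without the highest cell on each side the ratio was 0.00191. The ratio compares summed counts and does not describe each cell of the cluster. On ND, the 10 Kupffer cell markers were all found in this cluster and summed to 56.4 CPM, against 35.3 CPM on CDA-HFD. In the same ND-fed mouse they summed to 35.0 CPM in Ly6Chi and 49.9 CPM in Ly6Clo monocyte-like cells. In Cd209a+ dendritic cell-like cells the sum was 42.9 CPM, in neutrophil-like cells 104 CPM and in the Tmem119-led cluster 677 CPM. Ccl5 in the Cxcl9-led cluster went from 1663 to 757 CPM, at 0.455 (0.419 to 0.493). Ccl3, Ccl4, Ccl22 and Ccl2 were higher, at 10.6, 3.20, 3.23 and 2.09. Of the Ccl4 counts on ND, 84.5% came from 1 cell.

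**Figure D5:**
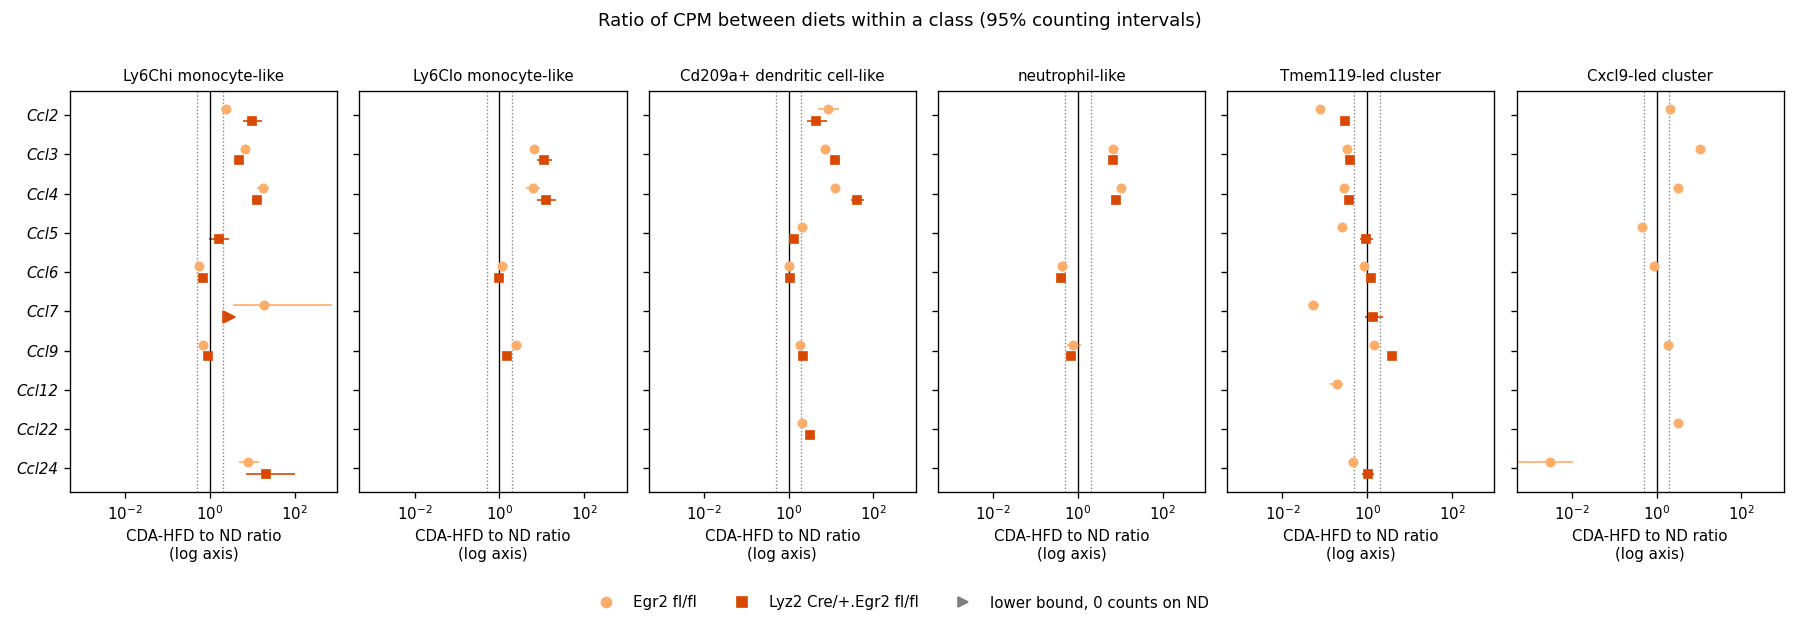
Ratio of CPM between CDA-HFD and ND (log axis) within 6 classes, for floxed (light circles) and Cre mice (dark squares), with 95% counting intervals. The triangle is a lower bound where ND had 0 counts, and none is drawn for Ccl5 in floxed mice. Dotted lines mark 2-fold and 0.5-fold. Ccl3 and Ccl4 lie above 2 in the 3 monocyte-like or Cd209a+ dendritic cell-like classes and in neutrophil-like cells, and below 0.5 in the Tmem119-led cluster.

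Between genotypes on ND, 3 ligands were past 2-fold over all cells, where 2.3% of 12723 genes were. All 3 were lower in the Cre mouse: Ccl5 at 0.384 (0.372 to 0.396), Ccl12 at 0.437 (0.359 to 0.531) and Ccl22 at 0.302 (0.275 to 0.331). The median ratio of the 10 ligands was 0.945, and that of all genes 1.03. These ND-fed mice are the same that stand as denominators in the diet comparisons. The Cxcl9-led cluster was 9.29% of the cells of the floxed mouse and 1.38% of those of the Cre mouse. It held 31.0% and 6.43% of their Ccl5 counts, 4924 and 341, and 19.3% and 31.85% of their Ccl22 counts, 414 and 179. Mature dendritic cell-like cells went from 983 to 111 Ccl22 counts, and 1 cell held 735 of the 2142 Ccl22 counts of the floxed mouse. T or NK cell-like cells, the leading Ccl5 source, went from 7041 to 2728 counts, with 71 and 47 cells at 9715 and 4035 CPM. Within classes, 8 of 35 pairs were past 2-fold, where 2.04% of 26786 pairs over all genes were, and of the 8, 3 stayed so without the highest cell on each side. Ccl4 in Cd209a+ dendritic cell-like cells was among the lower ones, from 59.8 to 16.8 CPM, at 0.2815 (0.185 to 0.417), and so was Ccl2 in the Tmem119-led cluster, from 399 to 121 CPM, at 0.303 (0.246 to 0.370). The other one that stayed was Ccl9 in Ly6Clo monocyte-like cells, higher at 2.05 (1.61 to 2.615).

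Between genotypes on CDA-HFD, 0 of the 10 ligands were past 2-fold over all cells, where 1.43% of 14927 genes were. The largest departures were Ccl7 at 1.44 (1.30 to 1.60) and Ccl22 at 0.795 (0.777 to 0.814). Ccl3 and Ccl4 stood at 0.9998 and 0.994, with intervals of 0.988 to 1.01 and 0.983 to 1.005. The median ratio of the ligands was 0.957, and that of all genes 1.02.

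Within classes on CDA-HFD, 11 of 80 pairs were past 2-fold, 4 higher and 7 lower in the Cre mouse, where 1.34% of 80301 pairs over all genes were. In hLAM-like cells, Ccl22 went from 57.8 to 26.9 CPM, at 0.465 (0.416 to 0.518), and Ccl5 from 54.6 to 22.7 CPM, at 0.415 (0.369 to 0.467). Ccl7 in the Tmem119-led cluster went from 6.11 to 26.8 CPM, at 4.38 (3.38 to 5.75), and Ccl7 in Ly6Chi monocyte-like cells from 16.7 to 8.07 CPM, at 0.483 (0.379 to 0.611). Ccl4 in mature dendritic cell-like cells went from 269 to 129.7 CPM, at 0.4815 (0.415 to 0.558). In the Cxcl9-led cluster Ccl22 went from 451 to 2350 CPM, at 5.21 (4.68 to 5.81), with 1 cell holding 59.2% of the counts of the Cre mouse. Without the highest cell on each side, 7 of the 11 stayed past 2-fold. The other 4 were Ccl7 in Ly6Chi monocyte-like cells, Ccl22 in the Apoc2-led cluster, Ccl24 in proliferating cell-like cells, and Ccl24 in the Cxcl9-led cluster, with 105 against 2 counts, 96 of them in 1 cell.

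Counts of several ligands were concentrated in few cells. The 1% of cells with the most counts held 58.4% to 88.9% of the Ccl22 counts of a mouse, and on ND 81.6% and 78.4% of the Ccl7 counts and 71.1% and 71.2% of the Ccl12 counts. On CDA-HFD only 62 and 93 cells had a count of Ccl7 and 37 and 36 of Ccl12, set against the 59 and 62 cells that make up 1%, so the share is largely fixed there and is not given. For Ccl6 the 1% of cells with the most counts held 5.83% to 10.9%, and for Ccl9 10.1% to 19.8%. Ccl3 fell from 37.6% and 38.1% on ND to 16.5% and 16.4% on CDA-HFD in this share, as more cells had a count of it: 15.7% and 19.2% of thinned cells on ND and 35.0% and 37.7% on CDA-HFD.

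Receptors of these ligands were read in the same cells. Ccr2, the receptor of Ccl2, Ccl7 and Ccl12, went from 216 to 507 CPM and from 129.5 to 563.9 CPM, at 2.34 and 4.36. Ccr3, the Ccl24 receptor, was lower with Ccl24, at 0.174 and 0.2698, although it is a leading gene of the Il4- and Alox15-led cluster, and Ccr1 was at 2.57 and 1.465. Ccrl2, which binds chemoattractants without signalling, went from 52.6 to 378 CPM and from 36.9 to 302 CPM, at 7.185 and 8.18. Ccr7 was at 3.645 and 3.61, and of the receptors named here none was past 2-fold between genotypes on either diet. Kupffer cell-like shares moved with these receptor levels too, and their part was not tested.

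Of the other CC chemokine ligands, 8 of 11 listed genes are in the matrix and 4 had 100 counts in each diet comparison. Ccl8, a Ccr8 ligand in mice, went from 5.03 to 0.458 CPM in floxed mice, at 0.0910, and Ccl17 from 71.15 to 18.9 CPM, at 0.265. In Cre mice Ccl17 went from 20.7 to 28.7 CPM, at 1.39, and Ccl1 from 3.48 to 0.133 CPM, at 0.0382.

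Genes that respond to cell handling and to NF-kB were read beside Ccl3 and Ccl4, which are known to be induced with both. Of 12 immediate early and stress genes, 11 were past 2-fold higher on CDA-HFD in floxed and 9 in Cre mice, and none lower, where 5.21% and 5.3% of all genes were past 2-fold higher. Their summed level was 1537 and 1465 CPM on ND and 6317 and 5046 CPM on CDA-HFD. Atf3 went from 98.9 to 1045 CPM and from 96.9 to 872 CPM. Of 9 NF-kB feedback genes, 5 were higher in each genotype and none lower, against the same shares of all genes. They summed to 11814 and 9030 CPM in neutrophil-like cells on ND and to 28378 and 24376 CPM on CDA-HFD. Between genotypes on CDA-HFD, Hspa1a and Hspa1b, 2 heat shock genes, were lower in the Cre mouse, at 0.2915 and 0.288. The part of stress during preparation in the diet and genotype ratios of Ccl3 and Ccl4 was not tested.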

How the data were processed

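Per the labels, the 2 libraries hold mRNA and hashtags of the same pooled cells. Reads had been mapped by the authors to GRCm38 transcripts. They kept barcodes above an inflection point, assigned them to hashtags and deposited whole-number counts per gene and barcode, without normalization. In 27 genes, Ccl5 among them, the lowest value above 0 is 5 or more. Barcodes named doublets or of no mouse (1392) were left out, and a further doublet score (scanpy 1.11.5) was used in an alternative alone. The hashtag table holds 7 columns of tags of no mouse, which were not used. Clustering followed the methods of the study in Seurat 5.3.0 and R 4.3.3, with 57 PCs and resolution 1.0, but without the 14 CC chemokine ligand genes among the variable genes. A cluster was named when at least 3 and no less than a 0.5 share of a list's markers were raised 2-fold in 20% of its cells and at least 1 was a leading gene. Counts were summed per mouse and class and scaled to 1000000 (CPM). Ratios were compared without a test, with exact intervals (Poisson, Clopper-Pearson, binomial split; scipy 1.17.1) at 95%. Alternatives were edgeR 4.0.16 TMM factors, other count minimums, folds, filters, clusterings and makeups. Motifs were searched in RefSeq promoters. Genes are named because they are members, belong to the lists, or are 1 of the 3 most alike. The members, lists and alternatives were chosen with earlier results of these data known. The ratio step was tested on simulated data. Results of 1 receptor are not reported here.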

Additional observations from a re-analysis of the deposited data

Results flagged for a closer look

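The diet ratios of Ccl5 over all cells lay on opposite sides of 1 in the 2 genotypes, at 0.469 in floxed and 1.12 in Cre mice. Those of Ccl6 in the Tmem119-led cluster did too, at 0.838 and 1.25 (1.253). With 1 mouse per group, neither difference between genotypes was tested.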

How the results depend on the processing

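No paired analysis was possible because each group holds 1 mouse and the labels give no replicate numbers. Of 98 counts and leading classes recomputed under other settings, 90 moved by less than 1.5 times, and of 56 under settings chosen after seeing the data, 48 did. Of 279 ratios of single ligands, 154 left the counting interval of the value given and 5 more changed side, and of 320 under the later settings 171 and 10 did. Ccl12 had no ratio between genotypes on CDA-HFD without the 1% of cells with the most of it, since no count was left. Pairs past 2-fold between diets within a class were 25 of 37 with at least 90% own hashtag counts. Pairs past 2-fold between genotypes on CDA-HFD were 6 without the 1% of cells with the highest CPM, 4 with at least 500 counts, 24 with no minimum, 20 at 1.5-fold and 25 of 129 with a per-cell marker gate. At 1 makeup, 0 ligands were lower on CDA-HFD in Cre mice and 1 was past 2-fold between genotypes on CDA-HFD. The ratios past 2-fold that changed side were Ccl5 at 1.43 and Ccl24 at 1.28 in floxed, Ccl7 at 2.43 and Ccl24 at 2.15 in Cre, and Ccl5 between genotypes on ND at 1.175. Of those within 2-fold, Ccl2 in Cre (2.07), Ccl7 and Ccl24 between genotypes on ND (0.185 and 0.464), and Ccl6 and Ccl9 between genotypes on CDA-HFD (1.09 and 1.21) did too. The main ND sources of Ccl5, Ccl7 and Ccl24 were left out here by construction. In the shared classes as they were, the counts were 2 higher in floxed and 0 lower in Cre, and the first 5 ratios were 1.27, 1.835, 2.93, 2.51 and 1.02. At 1 makeup with clusters found on both diets, 1 was higher in floxed, 0 lower in Cre and 1 past 2-fold between genotypes on CDA-HFD, and Ccl5 was at 1.34 in floxed, Ccl7 at 2.40 and Ccl24 at 1.23 in Cre, and Ccl5 between genotypes on ND at 1.18 (1.176). Without Kupffer cell-like cells and the Ttr- and Mup-led cluster, 1 ligand was lower in Cre, Ccl7 was at 2.69, and 6 were past 2-fold between genotypes on ND. By counts per cell, 4 of 10 ligands (Ccl5, Ccl9, Ccl22 and Ccl24) had the leading class given above. Over the 4 mice, the Cxcl9-led cluster led Ccl7 and Ccl12. Under several other cluster settings Ccl2, Ccl7 and Ccl12 were led by clusters of other names or numbers, and numbers alone do not match clusters between settings. Kupffer cell-like cells led Ccl7 and Ccl12 with at least 90% own hashtag counts and without the 1% of cells with the highest CPM. The Tmem119-led cluster led Ccl7 without its highest cell and Ccl12 by the mean of the cells' own CPM. The cause was not tested. Classes with few cells on ND, such as hLAM-like cells with 4 and 3, could not be compared between diets.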
